A study of Mus musculus with 2 samples.

Results

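Transferrin and 9 further genes of iron handling were described in the adrenal gland of young mice from long-read RNA sequencing, in which each read comes from 1 cDNA molecule. The 10 genes are Trf, Tfrc, Steap3, Slc11a2, Fth1, Ftl1, Slc40a1, Hmox1, Aco1 and Ireb2. They were chosen by gene name from 18580 annotated genes with at least 1 read, and all 10 had reads in both libraries, on 138 transcript models in replicate 1 and 280 in replicate 2. The set was selected with measured values in view: Trf has the highest mean level of any gene here, so that rank is a description of how it was picked and not a result.

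The study holds 1 group of 2 biological replicates, adrenal gland tissue of male B6CASTF1/J mice at 10 days of age. B6CASTF1/J animals are first-generation crosses of the C57BL/6J and CAST/EiJ strains. No treatment, mutation or second condition is part of the design, so the libraries could only be set against each other, and every difference below is the spread between 2 libraries. One label field gives both libraries the same animal number and another gives them different numbers, so the replicates may not be separate animals. Per the labels, replicate 2 started from 1 µg of RNA, and spike-in RNAs were added to both.

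Iron travels in blood bound to transferrin, which cells take up through the transferrin receptor. In the endosome the iron is released and reduced by the ferrireductase Steap3 and carried into the cytosol by the transporter Slc11a2 (DMT1). Iron not used for haem, iron-sulphur clusters and mitochondrial proteins is stored in ferritin, a shell of heavy (Fth1) and light (Ftl1) subunits, or leaves through the exporter Slc40a1 (ferroportin). Hmox1 frees iron from haem. Aco1 (IRP1) and Ireb2 (IRP2) are the iron regulatory proteins: in iron-poor cells they bind a hairpin, the iron-responsive element, which blocks translation when it lies near the 5′ end of an mRNA and protects the mRNA from decay when it lies in the 3′ untranslated region. Adrenal cortex cells need iron for their steroidogenic cytochromes P450, which are haem proteins, and for ferredoxin, an iron-sulphur protein.

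Hairpins of this kind are a known sequence feature of several of these mRNAs. The deposited counts are per transcript model, so a read is counted below as covering a hairpin when the model it was assigned to spans it. The ends of single reads were not used here, and a read cut short within the first exon of its model still counts as covering it. A search of the annotated transcripts for the canonical form found 1 element in the 5′ untranslated region of Fth1, Ftl1 and Slc40a1 and 4 in the 3′ untranslated region of Tfrc. The form searched on the mRNA strand was the loop CAGTGN, 5 paired bases on each side of it, an unpaired C before the upper stem and at least 3 of 5 further pairs. The same form was present in 263 of 141767 GENCODE M21 transcripts (0.186%), and Alas2, the erythroid first enzyme of haem synthesis, held it among the 53 other iron and haem genes listed for this account. Each element is 30 bases long, written 5′ to 3′ as DNA from the GENCODE M21 transcript, with the unpaired C and the loop in capitals.
Fth1, chr19:9982732-9982761, plus strand: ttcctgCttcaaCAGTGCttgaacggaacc
Ftl1, chr7:45459778-45459807, minus strand: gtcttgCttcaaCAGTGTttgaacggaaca
Slc40a1, chr1:45925464-45925493, minus strand: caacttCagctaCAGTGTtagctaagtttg
Tfrc, 1st element, chr16:32631219-32631248, plus strand: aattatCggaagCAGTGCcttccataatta
Tfrc, 2nd element, chr16:32631598-32631627, plus strand: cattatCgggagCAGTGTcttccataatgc
Tfrc, 3rd element, chr16:32631663-32631692, plus strand: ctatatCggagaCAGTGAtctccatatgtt
Tfrc, 4th element, chr16:32631710-32631739, plus strand: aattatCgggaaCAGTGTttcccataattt
Coordinates are on mm10. Slc11a2 is known to carry a less regular hairpin in 1 of its mRNA ends. A looser form of the search, chosen after the strict one had been run, allowed 4 of 5 upper pairs and a lower stem shifted by 1 base, and was present in 3525 transcripts (2.49%). It matched the long 3′ untranslated region of the transcript Slc11a2-205, at chr15:100395152-100395181 on the minus strand, and is shown because the ends of Slc11a2 are counted below.
Slc11a2-205: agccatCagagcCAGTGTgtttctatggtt
A match to these letters is a description of the sequence, and binding was not measured.

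The libraries held 971827 reads (replicate 1) and 1407511 reads (replicate 2). Levels are given as CPM, reads per 1000000 reads on annotated genes. A long read was counted once whatever its length, so CPM was not divided by transcript length when levels of different genes were compared. Any loss of long transcripts from the libraries was not corrected in these levels. The floor for a gene with 0 reads was the level of 3 reads, 3.23 and 2.30 CPM in the respective libraries. Intervals are exact 95% intervals and cover counting error only, since reads without molecular identifiers may share a PCR source. The libraries differed in completeness: 6.53% of replicate 1 reads and 14.3% of replicate 2 reads were on single-exon models, and short transcripts had relatively more reads in replicate 2. Summed hepatocyte markers (8 of 8 detected, 7 of them past 2-fold) stood at 9846 CPM in the first library and 29520 CPM in the second. Hepatocytes are not a cell type of the adrenal gland, and their part in the results below was not tested. Summed adipocyte markers (5 of 5 detected, 1 of them past 2-fold) were at 7852 and 8178 CPM, and summed glia markers at 75.4 and 107 CPM. The part of adipocytes and glia in the results was not tested either. The sum of adrenal cortex markers (6 of 6 detected, 2 of them lower by 2-fold or more) was 30893 and 19802 CPM, with Cyp11a1 level at 7423 and 7442 CPM. That of medulla markers (5 of 5 detected, 3 of them lower by 2-fold or more) was 11403 and 6053 CPM, with Pnmt at 639 and 707 CPM. In tissue RNA, fewer cells of a type and less RNA per cell cannot be told apart.

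Together the 10 genes reached 10684 CPM in the first library and 21592 CPM in the second. Trf alone was 74.8% of the first sum and 82.2% of the second. By mean level over both libraries the order was Trf, Fth1, Ftl1, Aco1, Slc40a1, Slc11a2, Tfrc, Steap3, Hmox1 and Ireb2. The ranges of both libraries did not overlap between neighbours in this order down to Slc40a1, nor between Tfrc and Steap3. They overlapped between Slc40a1 and Slc11a2, between Slc11a2 and Tfrc, between Steap3 and Hmox1, and between Hmox1 and Ireb2, so the order within these pairs is not settled.

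**Figure D1:**
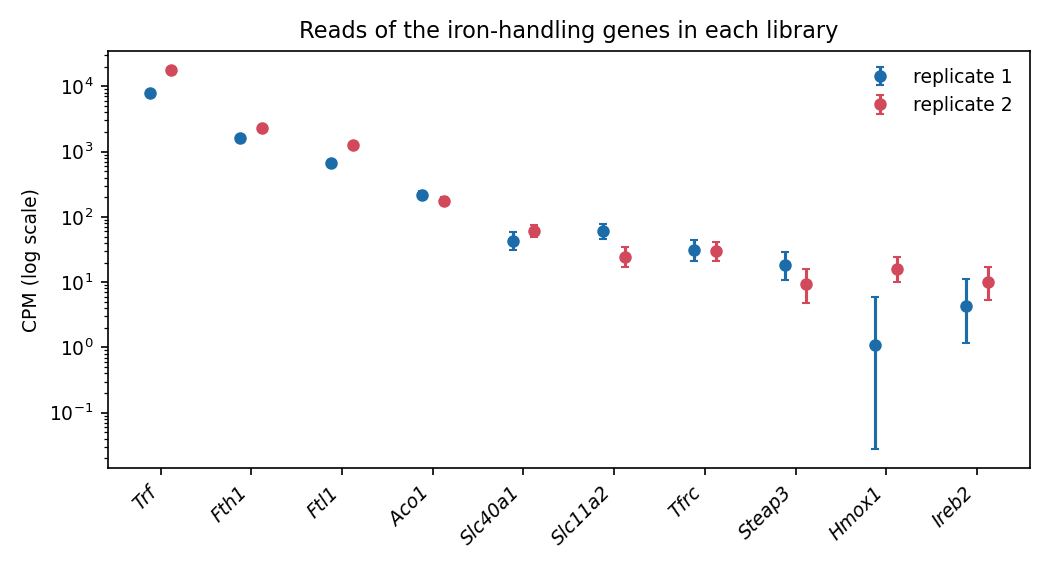
Level of each of the 10 genes in CPM on a log axis, 1 point per library with its exact 95% Poisson interval. Trf lies at 7993 and 17746 CPM, and the receptor gene Tfrc at 31.3 and 29.9 CPM.

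Trf, on chromosome 9, encodes transferrin, the iron carrier of plasma. It had 7417 reads in replicate 1 and 23130 reads in replicate 2, which is 7993 CPM (interval 7812 to 8177) and 17746 CPM (interval 17518 to 17976), with a mean of 12869 ± 6896 CPM (SD, n = 2). It was 0.799% of all gene reads in the first library and 1.78% in the second, and ranked 2 and 1 among all genes. The replicate 2 level was 2.22-fold that of replicate 1 (interval 2.16 to 2.28). The next genes by mean level were Apoe, which encodes a lipoprotein carrier, at 3559 and 12262 CPM, and Cyp11a1, which cleaves the cholesterol side chain at the start of steroid synthesis, at 7423 and 7442 CPM. Trf therefore lay close to Cyp11a1 in replicate 1 and well above it in replicate 2. Of the hepatocyte markers, Alb, which encodes albumin, was at 5054 and 8696 CPM and Ttr, which encodes the thyroid hormone carrier transthyretin, at 369 and 3030 CPM. Trf exceeded Alb in both libraries. In the adult mouse Trf is made mainly by hepatocytes, and the part of these cells in the Trf level was not tested.

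Trf was read almost entirely as 1 mRNA. The annotated transcript Trf-201 has 17 exons and 2571 nt, spans chr9:103208795-103230444 on the minus strand, and took 7062 of 7063 and 21477 of 21489 reads that matched an annotated transcript in full (called Known). Known models held 95.2% of all Trf reads in replicate 1 and 92.9% in replicate 2, against 79.8% and 73.9% over all annotated genes. Reads that match only part of an annotated intron chain made up 1.97% (146 reads) and 4.09% (946 reads) of Trf. Nearly all of these lacked exons at the 5′ end and kept the 3′ end: 146 of 146 in replicate 1 and 900 of 946 in replicate 2. A single-exon model of 231 nt at chr9:103208795-103209025, within the last exon, had 4 reads in replicate 1 and 102 in replicate 2.

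The share of Trf reads with each annotated intron was higher toward the 3′ end in both libraries, going from 97.8% at the first intron to 99.9% at the last in replicate 1, and from 95.3% to 99.3% in replicate 2. The deepest dip lay at intron 8, where 98.3% (replicate 1) and 97.7% (replicate 2) of reads had the annotated intron, below both neighbouring introns (99.4% and 99.4% in replicate 1, 98.3% and 98.6% in replicate 2). A smaller dip lay at intron 10. Both are introns with the unannotated splice sites described next.

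**Figure D2:**
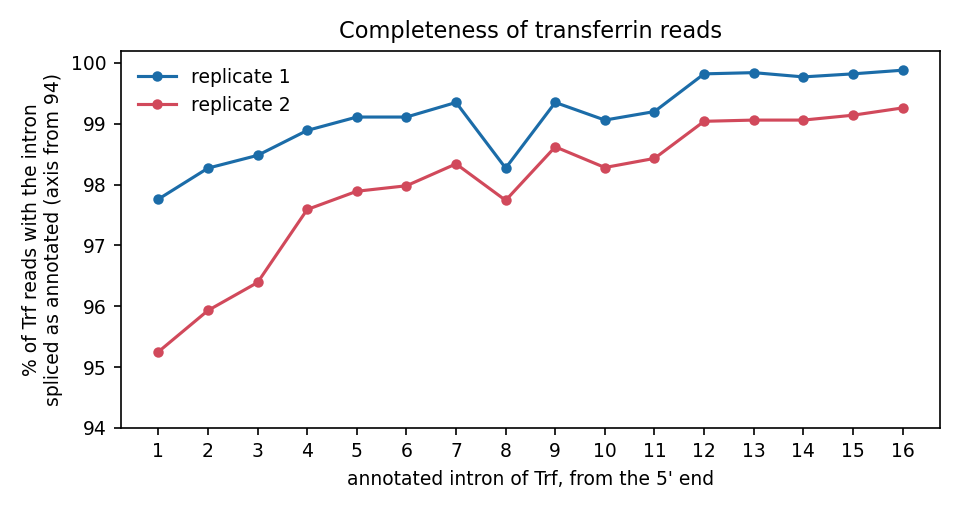
Percentage of all Trf reads that carry each of the 16 annotated introns, ordered from the 5′ end, with the axis starting at 94%. Replicate 1 goes from 97.8% to 99.9% and replicate 2 from 95.3% to 99.3%, with a dip at intron 8 in both.

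Across the set, unannotated intron chains were counted in each library and matched by their exact intron positions. Trf had 159 of them, of which 33 were found in both libraries, and these 33 held 178 of 204 such reads in replicate 1 and 423 of 588 in replicate 2. The 5 chains with the most reads in the smaller count were all from Trf. The first ended exon 8 2 nt early (46 and 85 reads) and the second ended it 4 nt late (23 and 57 reads). The third started exon 11 2 nt late (22 and 44 reads), and the fourth started exon 12 15 nt late (11 and 36 reads). The fifth skipped exon 11, which is 33 nt long, and started exon 12 22 nt early (11 and 34 reads). All exons named here are coding in the annotation. The exon joins are shown from 20 nt on each side of the annotated junction, from GENCODE M21, with the bases that the shorter form leaves out in capitals.
Trf exon 8 to exon 9, 2 bases lost: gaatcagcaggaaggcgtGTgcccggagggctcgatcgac
Trf exon 10 to exon 11, 2 bases lost: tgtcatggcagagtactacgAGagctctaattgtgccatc
Trf exon 11 to exon 12, 15 bases lost: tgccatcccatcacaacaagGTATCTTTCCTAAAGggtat
The bases lost at the end of exon 8 are GT, the letters with which most introns begin, and the bases lost at the start of exons 11 and 12 end with AG, the letters with which most introns end. The losses of 2 nt are not a multiple of 3, nor is the net loss of 11 nt in the chain that skips exon 11, while the loss of 15 nt is. A rarer chain also dropped exon 11 and began exon 12 15 nt late, a net loss of 48 nt and again a multiple of 3 (4 and 15 reads). Whether any of these shifts arose in the alignment of reads was not tested. The other 9 genes had at most 2 unannotated chains in both libraries (Slc11a2), with 1 each for Aco1 and Steap3. Trf also has far more reads than they do.

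Tfrc, which encodes the receptor that takes up transferrin-bound iron, was far below Trf in reads. Trf had 256 reads for each Tfrc read in replicate 1 and 593 in replicate 2. Tfrc had 29 reads in replicate 1 and 39 in replicate 2, which is 31.3 CPM (interval 20.9 to 44.9) and 29.9 CPM (interval 21.3 to 40.9). The libraries gave nearly the same level, 0.957-fold (interval 0.577 to 1.61), a range that includes no difference. The single annotated transcript with reads, Tfrc-201 (4890 nt, chromosome 16), is among the longest of the set, and in replicate 2 its reads were the least complete among genes with more than 20 reads. The first intron was present in 23 of 29 reads (79.3%) in replicate 1 and in 13 of 39 (33.3%) in replicate 2. The intervals of these shares, 60.3 to 92.0% and 19.1 to 50.2%, did not overlap. Each of the 4 iron-responsive elements shown above lay within the models of 29 of 29 reads and 37 of 39 reads. Counted over Known reads alone, Tfrc had 22 and 12 reads, and its log2 ratio went from -0.07 to -1.23, so the closeness of the libraries holds for reads of any completeness only.

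Steap3, the ferrireductase of the endosome, had 17 and 12 reads, or 18.3 and 9.21 CPM, with replicate 2 at 0.503-fold of replicate 1 (interval 0.219 to 1.12). That interval includes no difference. Only 2 of 12 reads in replicate 2 held the first intron, against 12 of 17 in replicate 1.

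Slc11a2, which carries ferrous iron out of the endosome, was the 1 gene of the set lower by 2-fold or more in replicate 2. It had 56 reads in replicate 1 and 32 in replicate 2, or 60.3 CPM (interval 45.6 to 78.4) and 24.6 CPM (interval 16.8 to 34.7), a ratio of 0.407 (interval 0.255 to 0.639). It was also the only gene with 2 annotated transcripts above 10% of its Known reads. Slc11a2-201 (3025 nt) ends in an exon of 1264 nt, and Slc11a2-205 (4415 nt) ends in another exon, of 2761 nt, that carries the hairpin shown above. Known reads were split 17 to 13 in replicate 1 and 5 to 6 in replicate 2. Over all reads, the exon of Slc11a2-201 was the last exon in 30 of 56 reads (53.6%, interval 39.7 to 67.0%) and in 12 of 32 (37.5%, interval 21.1 to 56.3%). The exon of Slc11a2-205 took the remaining 26 and 20 reads, of which 7 and 8 were single-exon reads. On the exon of Slc11a2-201 such reads were 0 and 1. Spliced reads were split 30 to 19 in replicate 1 and 11 to 12 in replicate 2. Both ends were thus found on spliced reads in both libraries. The intervals of the shares over all reads overlapped between the libraries. The hairpin lay within the models of 26 of the 26 reads with that end in replicate 1 and of 13 of the 20 in replicate 2.

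The ferritin genes were the most read of the set after Trf. Fth1 (chromosome 19) had 1519 and 2967 reads, which is 1637 and 2276 CPM, a mean of 1957 ± 452 CPM (SD, n = 2). It ranked 46 and 30 among all genes, and replicate 2 was 1.39-fold replicate 1 (interval 1.31 to 1.48). Ftl1 (chromosome 7) had 632 and 1619 reads, which is 681 and 1242 CPM, a mean of 962 ± 397 CPM, and a ratio of 1.82 (interval 1.66 to 2.00). The mRNAs of both subunits were higher in replicate 2, and both are short, a class that was higher there in general. At their lengths of 929 and 968 nt the running median of the log2 ratio over all genes was 0.50 and 0.41. With that median taken off, the log2 ratio went from 0.48 to -0.02 for Fth1 and from 0.87 to 0.45 for Ftl1.

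The light-chain count is uncertain because of a near-identical copy. Ftl1-ps1, a single-exon gene of 938 nt on chromosome 13 annotated as protein-coding, matched Ftl1-201 at 906 of 910 aligned bases. It had 489 and 1528 reads, or 527 and 1172 CPM, and so took 43.6% (interval 40.7 to 46.6%) and 48.6% (interval 46.8 to 50.3%) of the reads on either. Its transcript carries the same 30 bases of the iron-responsive element as Ftl1.
Ftl1-ps1, chr13:74406428-74406457, plus strand: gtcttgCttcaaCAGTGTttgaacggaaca
Whether reads on the copy were transcribed from it or from Ftl1 cannot be told from these counts. Both together came to 1208 and 2414 CPM. The ratio of Fth1 to light-chain reads therefore depends on the copy: 2.40 and 1.83 with Ftl1 alone, and 1.36 and 0.943 with the copy included. Heavy-chain reads were more than light-chain reads in both libraries by the first measure, and in replicate 1 alone by the second. Another copy, Ftl2-ps, had 3 reads in each library.

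**Figure D3:**
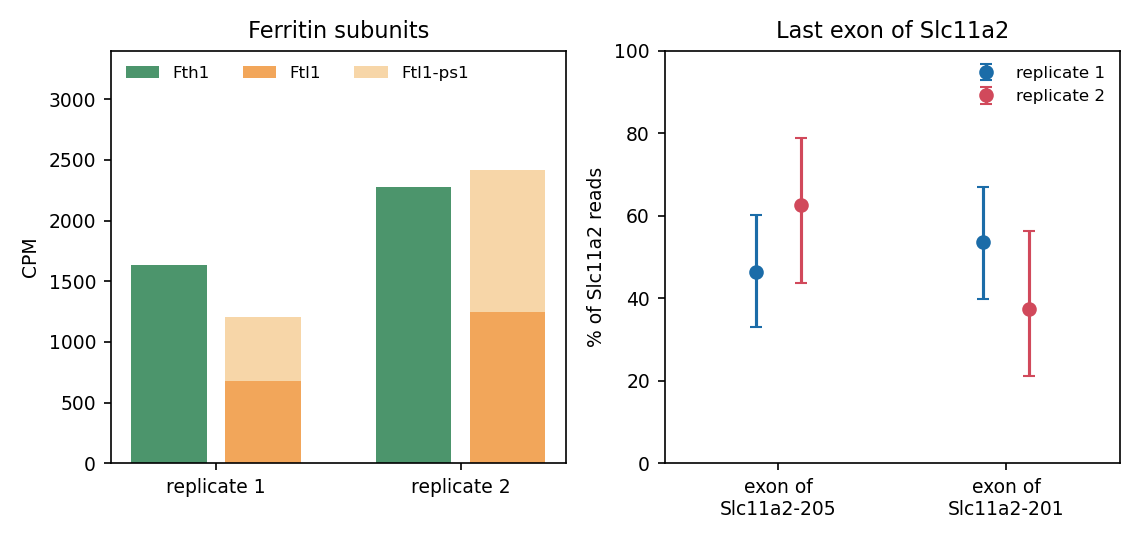
Left, CPM of the ferritin genes in each library, with the light-chain gene Ftl1 and its copy Ftl1-ps1 stacked (1208 CPM together in replicate 1, 2414 CPM in replicate 2). Right, percentage of Slc11a2 reads that end in each of the 2 last exons with exact 95% intervals, which overlap between the libraries.

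Ferritin reads nearly all held the first intron. It was present in 99.3% and 97.3% of Fth1 reads and in 98.6% and 98.3% of Ftl1 reads. The 5′ iron-responsive element lay within the models of 1514 of 1519 and 2965 of 2967 Fth1 reads, and of 625 of 632 and 1595 of 1619 Ftl1 reads. Each gene had 1 transcript with over 98% of its Known reads, Fth1-201 and Ftl1-201. An annotated intron was kept in 11 Fth1 reads in replicate 1 (0.724%, interval 0.362 to 1.29%) and in 80 in replicate 2 (2.70%, interval 2.14 to 3.34%), shares whose intervals did not overlap. In Ftl1 the same shares were 0.633% and 0.432%. Fth1 had 3 single-exon reads in replicate 1 and 49 in replicate 2, a class with a larger share of all reads in replicate 2. How many of these were among the Fth1 reads that kept an intron was not counted.

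Slc40a1, ferroportin, the iron exporter of the cell membrane, had 40 and 80 reads. This gave 43.1 CPM (interval 30.8 to 58.7) and 61.4 CPM (interval 48.7 to 76.4), with a ratio of 1.42 (interval 0.963 to 2.14) that includes no difference. All Known reads were on Slc40a1-201 (3370 nt, chromosome 1). Its 5′ element lay within the models of 39 of 40 reads in replicate 1 (97.5%, interval 86.8 to 99.9%) and of 62 of 80 in replicate 2 (77.5%, interval 66.8 to 86.1%). The first intron showed the same difference, 97.5% against 78.8%.

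Hmox1, the inducible haem oxygenase, had 1 read in replicate 1 and 21 in replicate 2, or 1.08 and 16.1 CPM. The ratio was 14.9 with an interval of 2.40 to 618, so its size is hardly determined while its direction is clear of counting error. Hmox1 is typical of macrophages that clear red cells. Summed macrophage markers (7 of 7 detected) were at 162 and 336 CPM, but only Lyz2 (64.7 and 186 CPM) differed by 2-fold or more. Summed erythroid markers (7 of 7 detected) were at 1332 and 4604 CPM. The 4 globin genes were higher by 2-fold or more in replicate 2, while Alas2 (98.1 and 56.0 CPM) and Slc4a1 (2.16 and 1.53 CPM) were not. Their part in the Hmox1 counts was not tested. The constitutive haem oxygenase Hmox2, of the other iron genes, was at 136 and 107 CPM.

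The mRNAs of the iron regulatory proteins were far apart in level. Aco1, which is a cytosolic aconitase when it holds an iron-sulphur cluster and an RNA-binding regulator when it does not, had 199 and 230 reads, or 214 and 176 CPM, a mean of 195 ± 26.9 CPM (SD, n = 2). Ireb2, the regulator that is degraded in iron-rich cells, had 4 and 13 reads, or 4.31 and 9.97 CPM. Aco1 exceeded Ireb2 in both libraries with exact intervals that did not overlap. Ireb2-201 (5770 nt) is the longest mRNA of the set, and only 1 of 4 and 3 of 13 reads held its first intron, so its molecules were mostly read in part. Aco1-201 (3832 nt) had the first intron in 90.5% and 83.5% of reads and the last in 98.0% and 99.6%. For Aco1 the ratio of 0.823 (interval 0.678 to 1.000) turned to a log2 difference of 0.21 from genes of the same length, having been -0.28 before.

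**Figure D4:**
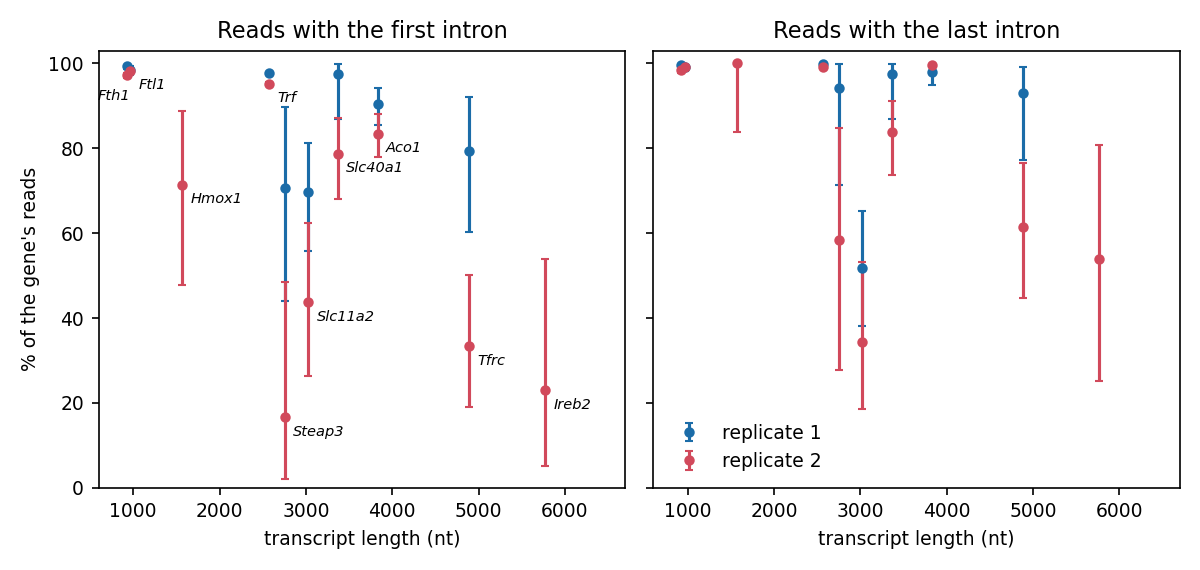
Percentage of each gene's reads that hold the first (left) and last (right) intron of its main transcript, against transcript length, for genes with 10 or more reads in the library and with exact 95% intervals. Fth1, Ftl1 and Trf lie above 95% at the first intron, while in replicate 2 Tfrc lies at 33.3% and Steap3 at 16.7%. For Slc11a2 the last intron is that of Slc11a2-201, which reads with the other end lack.

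A ratio of 2-fold or more between the libraries, computed with 0.5 reads added to each count, was found for 4 of the 10 genes. Trf, Hmox1 and Ireb2 were higher in replicate 2 and Slc11a2 was lower. Over all 11650 genes with 10 or more reads the share was 28.2%, with 13.4% higher in replicate 2 and 14.8% lower. The median log2 ratio was 0.49 over the 10 genes and -0.25 over all genes. The interval of the Ireb2 ratio, 0.715 to 9.74, included no difference. Taking off the running median for transcript length left Trf, Hmox1 and Ireb2 past 2-fold, with log2 differences of 1.52, 3.55 and 1.41. It took Slc11a2 to -0.81. By that measure 21.3% of all genes were past 2-fold. The scalings TMM and DESeq2, which set the median gene near 0, moved every log2 ratio up by 0.26 and brought Ftl1 past 2-fold as well. Under these scalings 26.05% (TMM) and 26.08% (DESeq2) of all genes were past 2-fold.

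**Figure D5:**
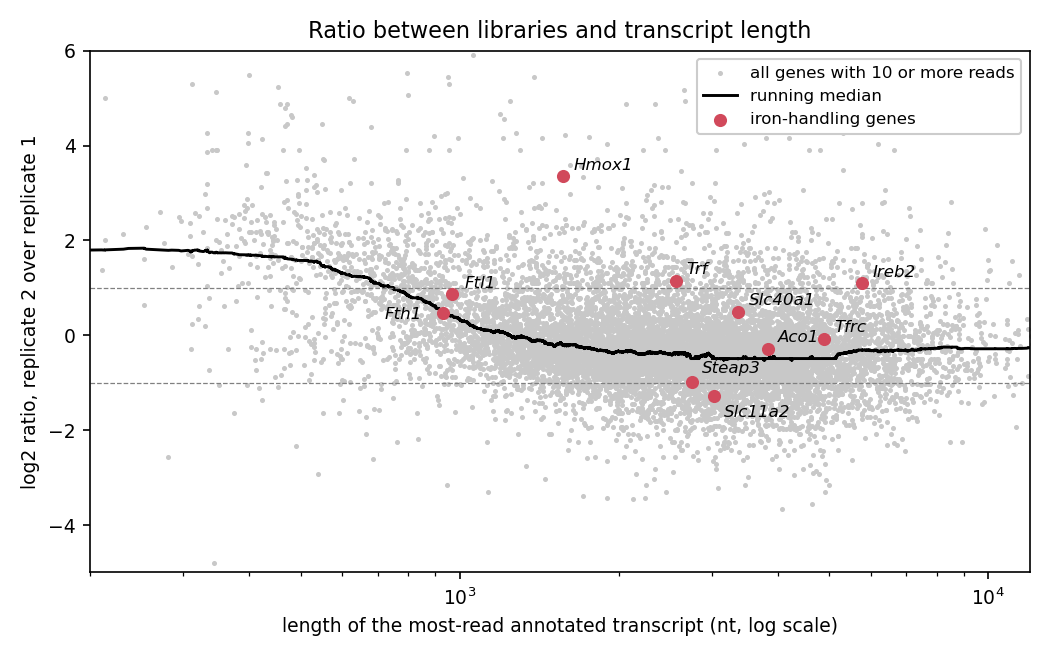
Log2 ratio of replicate 2 over replicate 1 against the length of each gene's most-read annotated transcript (log axis), for all genes with 10 or more reads (grey), with their running median (black), the 10 iron genes (red) and dashed lines at 2-fold. Fth1 lies on the running median, Trf and Hmox1 lie above it by 1.52 and 3.55, and Slc11a2 lies below it by 0.81.

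Of 53 other genes of iron and haem handling, 49 had reads, and 48 had 10 or more. Among these 11 were higher by 2-fold or more in replicate 2 and 4 were lower, 31.3% in all, beside the 28.2% of all genes, and their median log2 ratio was -0.11. With the running median for transcript length taken off, 15 were higher and 2 (Steap2 and Pcbp2) lower. By that measure 21.3% of all genes were past 2-fold. The genes named next are those past 2-fold before that step. The 11 higher in replicate 2 included 3 that encode plasma proteins. Hp (haptoglobin) was at 387 and 1513 CPM, Hpx (haemopexin) at 531 and 1171 CPM, and Cp (ceruloplasmin) at 35.6 and 102 CPM. These proteins are secreted mainly by hepatocytes, whose markers were higher in the same library as stated above. The part of these cells in the levels of the 3 genes, or of any other gene named here, was not tested. Also higher in replicate 2 were Tmprss6, a protease that restrains hepcidin (14.0 and 64.5 CPM), and the iron sensor Tfr2 (20.5 and 52.2 CPM). So was Hfe2, which encodes haemojuvelin (5.39 and 20.7 CPM). Hfe (71.1 and 60.6 CPM) and Bmp6 (24.8 and 19.9 CPM), which also act on hepcidin, did not reach 2-fold. Hamp, the gene of hepcidin itself, had 0 reads and 1 read. The others were Blvrb, a biliverdin reductase (30.2 and 91.3 CPM), Cpox, of haem synthesis (23.7 and 63.7 CPM), the zinc and iron transporter Slc39a14 (5.39 and 23.0 CPM), the haem-sensing repressor Bach1 (4.31 and 10.7 CPM), and Lcn2, which binds siderophores (1.08 and 8.44 CPM). Several of these rest on few reads. Bach1 had 4 and 14 reads, and the interval of its ratio, 0.78 to 10.4, included no difference. Lcn2 had 1 and 11 reads (interval 1.14 to 337), Hfe2 5 and 27, and Slc39a14 5 and 30.

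The 4 lower genes were Fech, Epas1, Lrp1 and Steap2. Fech, which inserts iron into haem, was at 195 and 79.0 CPM, and the hypoxia factor Epas1 at 50.7 and 20.7 CPM. The haemopexin receptor Lrp1 was at 31.3 and 14.6 CPM, and the metalloreductase Steap2 at 15.1 and 4.60 CPM. With the running median for length taken off, the log2 ratios of Fech (-0.99), Epas1 (-0.93) and Lrp1 (-0.60) fell short of 2-fold. That of Steap2 was -1.16. The other iron gene with the most reads was Alas1, the housekeeping first enzyme of haem synthesis, at 3387 and 1714 CPM. It lay above Fth1 in replicate 1 and below it in replicate 2. After Alas1, Hp and Hpx came genes of iron-sulphur assembly and iron delivery: Glrx5 (479 and 670 CPM), Iscu (473 and 592 CPM), the iron chaperone Pcbp1 (396 and 324 CPM) and Nfs1 (218 and 178 CPM), and then Alad of haem synthesis (205 and 179 CPM). None of these 5 differed by 2-fold. The erythroid enzyme Alas2, whose mRNA carries an iron-responsive element, was at 98.1 and 56.0 CPM, far below Alas1 in both libraries. No read was found in either library for Hamp2, Cybrd1, Ftmt and Meltf.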

How the data were processed

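Long-read RNA sequencing of total RNA from adrenal gland gave 1 library per replicate. The deposited tables give raw counts, the number of long reads that the authors assigned to each transcript model, without normalization. They also give exon number and spliced length in bases (other unit), and the deposited annotations give 1-based positions on mm10 with GENCODE M21 as annotation, per the file headers and the samples' notes. The model builder left talon attributes in the deposited annotations, and no source used here gives the versions of the aligner and the builder.

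Reads were summed per annotated gene and scaled to CPM, with 927914 and 1303420 gene reads as denominators. Reads on models of no annotated gene (4.52% and 7.40%) were left out. Intervals are exact (Poisson for levels, Clopper-Pearson for shares, binomial for ratios) at 95%. No test was run, since 1 library stood against 1. Called means a ratio of 2-fold or more with 0.5 reads added and 10 or more reads. The calling step was run on simulated counts that held counting error only, which checks the code and not the calls in these libraries. Hjv was looked up under its GENCODE M21 symbol, Hfe2. The genes and lists were chosen with earlier results of these data known. Genes named are the 10, other iron genes past 2-fold or among the 8 with the highest mean CPM, the neighbours of Trf, transcripts with 10% or more of Known reads and the 5 leading unannotated chains. Hmox2, Alas2, Hamp, Hfe, Bmp6, the markers and the genes with no read were named after their values were seen. Python 3.11.15, scipy 1.17.1, Biopython 1.88 and R 4.3.3 were used. Normalization factors came from edgeR 4.0.16 (TMM) and DESeq2 1.42.0, used for scaling only. Overlapping genes were few: Gm20425 lies on the strand of Trf (13 and 8 reads).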

Additional observations from a re-analysis of the deposited data

How the results depend on the processing

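The summed level of the 10 genes was 15098 to 20025 CPM under other scalings and model classes, and 10684 to 21592 CPM without 1 replicate. The Known share was 94.9% without Genomic models and 93.3 to 95.6% without 1 replicate. With 2 libraries, these ranges are no sign of stability. The count of 4 genes past 2-fold was 3 to 5 under most other settings that kept this threshold. It was 2 with a minimum of 50 reads, which leaves 7 genes. At other thresholds it was 6 (1.5-fold) and 1 (3-fold). The count of 15 other iron genes went to 26 at 1.5-fold, 6 at 3-fold and 9 with a minimum of 50 reads, and was 13 to 18 otherwise. The share of all genes past the threshold moved as well, to 52.7% at 1.5-fold, 11.2% at 3-fold and 23.4% with a minimum of 50 reads. None of the 4 called ratios of the 10 genes changed sign under the alternatives run for them. Not all stayed past 2-fold: Ireb2 went to a log2 ratio of 0.86 without Genomic models and 0.995 with 1 read added. Over Known reads alone Steap3 and Tfrc passed 2-fold in the lower direction and Ireb2, with 3 such reads, was not counted. The share of all genes past 2-fold over Known reads was 33.75%. Steap3 also passed 2-fold in the lower direction without Genomic models and when scaled to all reads of the library. The shares of all genes past 2-fold were then 30.05% and 28.83%. The cause of these changes was not tested. Genes under 30 reads in all (Steap3, Hmox1 and Ireb2) are limited by depth. No paired analysis was possible because both libraries belong to 1 group, with no second condition.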
